A study of Mus musculus with 24 samples.

Results

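The genes described here encode the subunits of the receptors for glutamate, the main excitatory transmitter of the brain, and for GABA, the main inhibitory transmitter. Membership went by gene symbol, as every symbol of the ionotropic glutamate (Gria, Grid, Grik, Grin), metabotropic glutamate (Grm), GABA-A (Gabra, Gabrb, Gabrg, Gabrd, Gabre, Gabrp, Gabrq, Gabrr) and GABA-B (Gabbr) families. The families were chosen with earlier results of these data known. The symbol rule itself used no expression values. The rule gave 47 of the 55797 gene names in the count files: 4 AMPA, 2 delta, 5 kainate and 7 NMDA receptor genes, 8 metabotropic glutamate receptor genes, 6 GABA-A alpha genes, 6 GABA-A beta and gamma genes, 7 GABA-A rho and other genes and 2 GABA-B genes. RNA had been sequenced from brain and liver of male C57/BL6 mice, whose treatment is labelled as 16 weeks. The study asked how 3M-Brazzein, a sweet-tasting protein, and sucrose affect brain and liver in a leptin receptor model. The 12 brain libraries fell into 6 groups of 2: db/+ mice with water, sucrose or brazzein, and db/db mice with water, sucrose or brazzein. The db allele is a mutation of the leptin receptor gene, so db/+ mice carry it on 1 chromosome copy and db/db mice on both, and no group was free of it. Genotype was read from the sample titles, because the separate genotype entry reads db/+ for every brain. The labels give the tissue as brain without a region and do not say whether a library came from 1 animal or a pool.

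Glutamate and GABA act through channels and through G protein-coupled receptors. AMPA and kainate receptors pass fast excitatory current, whereas NMDA receptors also need a co-agonist and a depolarised membrane and admit calcium. GABA-A receptors are chloride channels assembled from several subunits, in most cases alpha, beta and gamma together, and the alpha subunit sets much of where and how they act. Metabotropic glutamate receptors and the GABA-B receptor, an obligate pair of Gabbr1 and Gabbr2, signal through G proteins and tune transmitter release and excitability. Some members mark particular cells, as Gabra6 does cerebellar granule cells. Many GABA-A genes lie in clusters. In the RefSeq gene order of GRCm38.p6, Gabra6 and Gabrb2 were neighbours, as were Gabrg3 and Gabra5, Gabrg1 and Gabra2, Gabra4 and Gabrb1, Gabrr2 and Gabrr1, and Gabra3 and Gabrq.

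The promoters of 4 members are shown as examples of genes named below. Gabrb1 and Gabrb2 are named in the comparison of genotypes, Grm2 in the comparison of drinks, and Gabra6 for a library low in cerebellum. None of the 4 passed the adjusted threshold in the main fit. Each promoter is the 250 bases before a start site, 5′ to 3′ on the strand of the gene, from RefSeq with the build GRCm38.p6. Of the 47 members, 32 had an entry. Capitals mark the GC box GGGCGG, a binding motif of Sp factors, and the motif TTGGC, which is part of the binding site of NFI factors, each searched on both strands.
Gabrb1, chr5:71699682-71699931, plus strand: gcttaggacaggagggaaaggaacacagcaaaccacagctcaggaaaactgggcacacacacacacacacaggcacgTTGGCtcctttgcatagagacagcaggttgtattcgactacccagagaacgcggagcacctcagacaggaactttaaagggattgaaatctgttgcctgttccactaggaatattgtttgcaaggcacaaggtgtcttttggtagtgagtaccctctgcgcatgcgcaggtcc
Gabrb2, chr11:42420951-42421200, plus strand: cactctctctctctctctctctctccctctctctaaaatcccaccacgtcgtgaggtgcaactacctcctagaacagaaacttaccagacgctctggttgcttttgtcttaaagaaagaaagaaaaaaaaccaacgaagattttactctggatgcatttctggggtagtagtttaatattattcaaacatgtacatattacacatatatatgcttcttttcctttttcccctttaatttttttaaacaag
Grm2, chr9:106656110-106656359, minus strand: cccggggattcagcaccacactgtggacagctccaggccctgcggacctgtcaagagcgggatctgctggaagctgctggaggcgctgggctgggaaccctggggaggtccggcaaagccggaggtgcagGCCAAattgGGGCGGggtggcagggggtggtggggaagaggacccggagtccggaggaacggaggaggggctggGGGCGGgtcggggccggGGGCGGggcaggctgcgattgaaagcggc
Gabra6, chr11:42321073-42321322, minus strand: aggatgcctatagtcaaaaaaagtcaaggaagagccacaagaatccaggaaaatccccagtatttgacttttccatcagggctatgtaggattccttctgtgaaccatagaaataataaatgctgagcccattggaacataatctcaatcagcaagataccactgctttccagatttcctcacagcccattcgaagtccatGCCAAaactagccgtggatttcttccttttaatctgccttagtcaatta
The Grm2 window was rich in G and C (71.2%), with 16 CpG dinucleotides and 3 GC boxes, whereas Gabrb1 (50.8% and 6 CpG), Gabra6 (40.8% and 2 CpG) and Gabrb2 (36.8% and 4 CpG) held no GC box. The motif TTGGC stood once in each of the Grm2, Gabrb1 and Gabra6 windows and not in that of Gabrb2. None of the 4 windows held TATAAA. Over all 32851 RefSeq promoter windows of this length the median was 52.4% G and C with 6 CpG, 32.7% held GGGCGG, 41.5% held TTGGC and 12.4% held TATAAA. A match describes the letters and is not a measured site.

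Brain libraries held 58287665 to 77772849 counts in all. Brain levels are given as CPM, counts scaled to a common library size with the factors of edgeR. Liver CPM was scaled by total counts alone, without these factors. Where genes are set beside each other, levels are given as deposited FPKM, which also divides by gene length. Lepr, the leptin receptor gene, was at 3.13 to 3.87 CPM in the 6 db/+ brains and at 2.004 to 2.775 CPM in the 6 db/db brains, with no overlap, although a gene count does not read the mutation itself (log2 difference -0.48, SE 0.11, adjusted p = 0.157 in edgeR's quasi-likelihood test). Of the 17 lists of region and cell type markers, the neuron markers summed to 6481 to 6836 CPM in db/+ and 6411 to 6663 CPM in db/db, so neuronal RNA was present in all libraries. A library from a db/+ mouse with water (replicate 1) stood apart: its 14 cerebellum markers summed to 470.3 CPM, against 1250 to 1522 CPM in the other 11. The 7 pituitary markers were high in 2 other db/+ libraries, sucrose replicate 1 and brazzein replicate 2, with sums of 363.2 and 138.5 CPM against 2.15 to 6.60 CPM in db/db, and results are also given without these 3 libraries where this moved them. In these whole-tissue libraries, fewer cells of a type and less RNA per cell cannot be told apart.

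On the FPKM scale the GABA-B gene Gabbr1 had the highest mean level of all members, 142.3 ± 30.3 FPKM (SD, n = 12). It was followed by Grin1, the NMDA subunit that every NMDA receptor needs, at 96.5 ± 5.32 FPKM. Gria1 led the AMPA genes at 61.6 ± 1.78 FPKM, and Gria4 was their lowest at 16.7 ± 2.30 FPKM. These levels were steady for Gria1, which spanned 469.8 to 507.9 CPM over all 12 brains, and for Grin1, at 543.6 to 613.6 CPM. Gabbr1 was less even, at 308.3 to 960.9 CPM.

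Within the GABA-A beta and gamma genes, Gabrb2 ran from 18.61 to 31.74 FPKM and Gabrg3 was the lowest at 2.33 ± 0.19 FPKM. Gabrd, which encodes the delta subunit of extrasynaptic receptors, was at 31.6 ± 2.34 FPKM, within the spread of Gabra6 at 30.6 ± 7.64 FPKM. Gabra2 was the lowest alpha gene at 11.3 ± 1.70 FPKM. Summed over its members, the alpha family reached 189.8 ± 10.8 FPKM, GABA-B 186.5 ± 32.2, AMPA 129.7 ± 7.26, NMDA 114.5 ± 6.25, and beta and gamma together 113.3 ± 8.71 FPKM. The metabotropic family (43.5 ± 6.69 FPKM), the rho and other group (34.8 ± 2.18) and the kainate family (34.5 ± 17.5) were lower. Over the 12 libraries the alpha (170.4 to 204.8 FPKM) and GABA-B sums (119.1 to 211.7) overlapped, as did AMPA (114.9 to 139.1), NMDA (107.1 to 130.4) and beta and gamma (94.96 to 125.4). All of these lay above the metabotropic (33.88 to 52.85), kainate (20.81 to 60.87) and rho and other sums (30.44 to 38.23), which overlapped each other.

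At the low end, the metabotropic gene Grm6, known from retinal bipolar cells, was listed at 0 in all 12 brains, and Gabrp was at 0 in 10 of them. These 2 genes were too low for the filter on counts, so 45 members were tested. Gabrr3 was at 0 in 5 libraries and reached 0.27 CPM, and Gabrr1 lay between 0.19 and 0.55 CPM. The metabotropic family was led by Grm4, a presynaptic receptor of granule cell axons in cerebellum, at 13.6 ± 3.00 FPKM. Grik5 and the delta gene Grid1 had mean levels of 14.96 ± 16.95 and 8.52 ± 0.77 FPKM, and Grik2 was the lowest kainate gene at 3.54 ± 0.71 FPKM. Grin3b was the lowest NMDA gene at 0.24 ± 0.05 FPKM. Ranks on the CPM and FPKM scales over the 47 members were alike (Spearman's rho 0.929 across genes, which are not independent replicates).

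Nearly all members stood higher in brain than in liver in this series. For 41 of 47, every brain library lay above every liver library, and 22 members were listed at 0 in all 12 livers. The shares of all genes with these traits were not computed, so the counts describe the members only. Only 3 members had a mean of at least 1 CPM in liver: Gabbr2 (10.9 CPM), Grik5 (6.12 CPM) and Gabbr1 (2.97 CPM).

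Averaged over the drinks, receptor genes lay mostly a little lower in db/db than in db/+ brains, and the differences were small. With water alone, group means stood on both sides. Gabrb1 (132.7 CPM in db/+ and 119.9 in db/db) and Gabra4 (139.5 and 118.8) were lower in db/db. Gria1 (481.5 and 496.2) and Grin1 (557.7 and 570.8) were higher. The members' median for sucrose against water was 0.12 in db/+ and -0.17 in db/db. Genotype within water was not tested. None of the 45 members passed an adjusted p of 0.05 for genotype in edgeR's quasi-likelihood test, where 0.00846% of all 23653 genes did. At an unadjusted p under 0.05, however, 14 members (31.1%) differed, 13 of them lower in db/db and 1 higher, beside 13.8% of all genes (7.16% lower and 6.69% higher). The log2 difference was below 0 for 37 of 45 members (82.2%), beside 50.1% of all genes. The median over the members was -0.09 on the log2 scale, and over all genes -0.0004. With 1 library left out, the members' median ran from -0.13 (without db/db sucrose replicate 2) to -0.06 (without db/db sucrose replicate 1). DESeq2, the other count test, called 5 members, Gabrb1, Gabrb2, Gria3, Grin2a and Grin3a, all lower, among 869 genes.

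**Figure D1:**
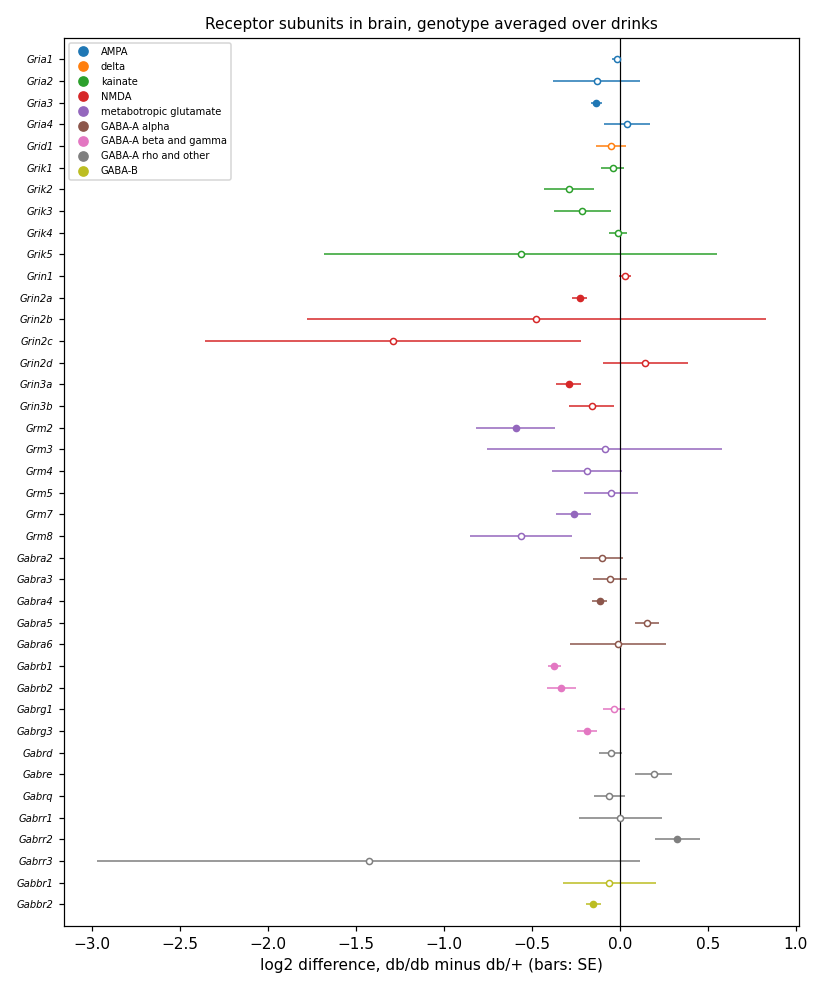
Log2 difference of 40 of the 45 tested subunits between db/db and db/+ brain, averaged over the 3 drinks (x axis; points, estimates; bars, SE; filled points, unadjusted p under 0.05; colours, receptor families on the y axis). Of 40 points, 33 lie to the left of 0, and the widest bars belong to Gabrr3, Grin2b, Grik5 and Grin2c, whose counts were uneven between replicates.

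The GABA-A beta gene Gabrb1 had the smallest p of all members. It was at 138.0 and 127.4 CPM in the db/+ brains with water, 148.0 and 141.8 with sucrose, and 143.0 and 150.2 with brazzein. In db/db it was at 121.3 and 118.5 CPM with water, 90.07 and 96.61 with sucrose, and 120.5 and 112.0 with brazzein. All 6 db/db libraries thus lay below all 6 db/+ libraries, which held for 1 of 45 members and for 0.989% of all genes. The reverse, all 6 db/db libraries above, held for no member and for 0.871% of all genes. The means were 141.4 ± 8.15 CPM in db/+ and 109.8 ± 13.4 CPM in db/db (SD, n = 6), a log2 difference of -0.37 (95% interval -0.46 to -0.28). Its adjusted p of 0.0599 in edgeR's test just missed the threshold, and was between 0.0334 and 0.133 when 1 library was left out. Without the 3 db/+ libraries that stood apart, the difference was -0.33 (adjusted p = 0.293 in edgeR).

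Gabrb2, a beta subunit found in many synaptic GABA-A receptors, showed a difference of similar size with more scatter. It ran from 312.7 to 369.5 CPM in db/+ (347.0 ± 22.2, n = 6) and from 210.7 to 327.9 CPM in db/db (276.4 ± 39.1, n = 6). Only the db/db water library of replicate 1, at 327.9 CPM, reached into the db/+ range. The log2 difference was -0.33 (SE 0.08, adjusted p = 0.171 in edgeR). All 6 beta and gamma genes were below 0, 4 of them at an unadjusted p under 0.05, and their summed level was 118.2 ± 4.63 FPKM in db/+ and 108.3 ± 9.26 FPKM in db/db. Gabrg3 was among these 4, at -0.19 (adjusted p = 0.229 in edgeR). Its difference lay mostly in the sucrose groups, with means of 25.48 CPM in db/+ and 18.82 CPM in db/db. The Gabrg3 means were 26.63 and 26.13 CPM with water, and 27.56 and 25.76 CPM with brazzein.

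Of the 6 alpha genes, 5 were below 0 and 2 reached an unadjusted p under 0.05, with log2 differences for the family between -0.11 and 0.15. Gabra4, which forms receptors with the delta subunit in forebrain, was at -0.11 (131.2 ± 7.71 CPM in db/+, 121.1 ± 7.19 in db/db; adjusted p = 0.301 in edgeR). Gabra5, an alpha subunit of extrasynaptic receptors of the hippocampus, went the other way at 0.15 (76.6 ± 8.44 and 85.0 ± 4.45 CPM; adjusted p = 0.376 in edgeR). Gabrr2, a rho gene best known from retina, was the only member higher in db/db at an unadjusted p under 0.05: 2.51 to 3.38 CPM in db/+ and 2.69 to 4.40 CPM in db/db (log2 0.33, SE 0.13, adjusted p = 0.312 in edgeR). Its groups overlapped widely, and the 3 high db/db values were a water library and both sucrose libraries.

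Among the NMDA genes, Grin2a, the subunit that gives mature receptors their fast kinetics, was at 122.9 to 148.2 CPM in db/+ (136.8 ± 8.42) and 99.67 to 135.2 CPM in db/db (117.1 ± 12.02). The log2 difference was -0.23 (SE 0.04, adjusted p = 0.131 in edgeR). The 4 db/db libraries with sucrose or brazzein lay below all 6 db/+ libraries, and the 2 with water lay within the db/+ range. Grin3a, which lowers calcium entry through NMDA receptors, was at 55.02 to 66.40 CPM in db/+ and 39.54 to 59.27 CPM in db/db (-0.29, SE 0.07, adjusted p = 0.171 in edgeR). Grin1, the shared subunit, was level: 561.3 ± 8.53 and 572.1 ± 25.4 CPM, with a 95% interval of the log2 difference from -0.05 to 0.10.

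Of the AMPA genes, Gria3 was at 214.6 to 235.9 CPM in db/+ and 192.3 to 216.3 CPM in db/db (-0.13, SE 0.03, adjusted p = 0.170 in edgeR), so the groups touched at 214.6 to 216.3 CPM. Gria1, in contrast, had an interval of -0.07 to 0.04 around a difference of -0.02. All 5 kainate genes were below 0, none at an unadjusted p under 0.05. All 7 tested metabotropic genes were below 0 as well, 3 of them at an unadjusted p under 0.05. Grm7, a presynaptic receptor, was among these at -0.26 (45.8 ± 3.93 and 38.4 ± 7.28 CPM), and Grm2 at -0.59 (19.4 ± 4.41 and 14.4 ± 6.75 CPM), with adjusted p-values of 0.301 and 0.304 in edgeR. The Grm2 difference lay mostly in the sucrose groups, with means of 18.86 CPM in db/+ and 6.36 CPM in db/db. The Grm2 means were 20.64 and 18.84 CPM with water, and 18.81 and 17.85 CPM with brazzein. The GABA-B gene Gabbr2 was at 361.8 to 418.3 CPM in db/+ and 298.6 to 385.0 CPM in db/db (-0.15, SE 0.04, adjusted p = 0.208 in edgeR). Its group means were level with water, at 376.4 CPM in db/+ and 376.1 CPM in db/db. They were 410.2 and 325.2 CPM with sucrose, and 406.7 and 375.6 CPM with brazzein.

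Other members differed little or with wide intervals. Among the kainate genes, Grik4 had a log2 difference of -0.01 (95% interval -0.12 to 0.10) and Grik1 of -0.04 (-0.19 to 0.11), whereas Grik2, which was at 28.15 to 53.09 CPM in db/db, had -0.29 (-0.62 to 0.04) and Grik3 -0.21 (-0.59 to 0.16). Grid1 was at -0.05 (-0.24 to 0.14). The gamma gene Gabrg1 was at -0.03 (-0.18 to 0.11), and the alpha genes Gabra2 and Gabra3 at -0.10 (-0.39 to 0.18) and -0.06 (-0.28 to 0.17). Gabrd was at -0.05 (-0.20 to 0.09), so a difference in the delta subunit beyond 0.20 in either direction lies outside its interval. Grm8, a presynaptic receptor, had a larger estimate of -0.56 with an interval of -1.23 to 0.11, and Grm5 and Grm4 were at -0.05 (-0.41 to 0.30) and -0.19 (-0.65 to 0.27). Gabre and Gabrq, known from hypothalamus and brainstem, were at 0.19 (-0.05 to 0.44) and -0.06 (-0.26 to 0.14).

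**Figure D2:**
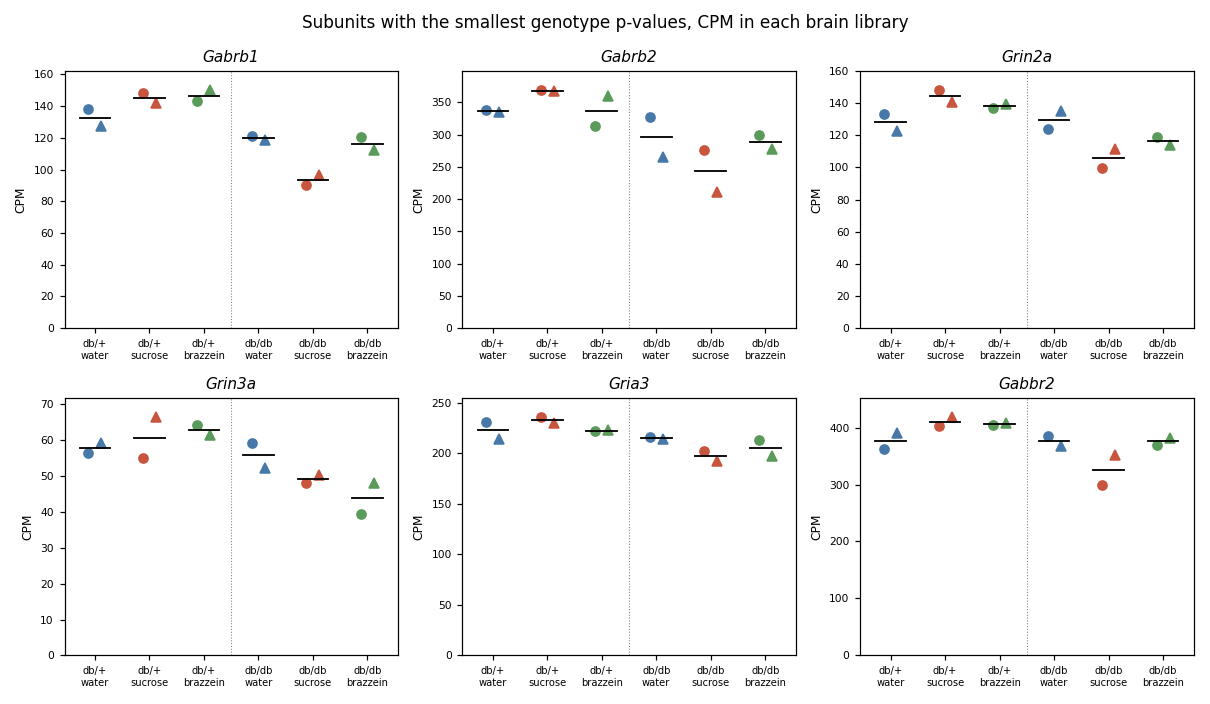
CPM (y axis, linear from 0) of the 6 subunits with the smallest genotype p-values in the 12 brain libraries, by genotype and drink (x axis; circles, replicate 1; triangles, replicate 2; horizontal lines, group means of 2). For Gabrb1 the 6 db/db points, 90.07 to 121.3 CPM, all lie below the 6 db/+ points, 127.4 to 150.2 CPM; in the other 5 panels the genotypes overlap.

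Markers of blood and some of choroid plexus also stood at other levels in db/db. All 5 blood markers reached an unadjusted p under 0.05 and were higher in db/db (sums of 855.6 to 1909 CPM in db/+ and 1450 to 2602 CPM in db/db). The 6 choroid plexus markers summed to 767.8 to 1084 CPM in db/+ and 1152 to 1332 CPM in db/db, with no overlap. Most of this sum was Ttr alone, at 713.1 to 1010 CPM in db/+ and 1077 to 1250 CPM in db/db. Such a separation with db/db above held for 0.871% of all genes. Of the 6 markers, 2 reached an unadjusted p under 0.05, both higher in db/db, and 1 of the 6 was below 0. Of the neuron markers, 7 of 8 were below 0 with a median of -0.03 on the log2 scale, and of the thalamus markers 7 of 8 with a median of -0.13. Of the microglia markers 7 of 7 were below 0 (median -0.13), and of the oligodendrocyte markers 5 of 7 (median -0.10). All 6 tested pituitary markers were below 0, where 2 db/+ libraries stood high. The part of these differences in the receptor values was not tested.

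Genes that work with the receptors gave no uniform picture for genotype, and none of the 5 lists held a gene past the adjusted threshold. Their counts at an unadjusted p under 0.05 stand beside 13.8% of all genes. Of 15 AMPA and kainate auxiliary subunits, 2 reached an unadjusted p under 0.05, both lower in db/db: Frrs1l, needed for AMPA receptor assembly (-0.16), and Neto1, a kainate receptor partner (-0.31). Of 18 scaffold genes of glutamate synapses 3 did, all lower: Dlg2 (-0.52), Dlgap1 (-0.44) and Dlgap2 (-0.35). Among 11 GABA receptor scaffolds and partners only Gphn, which encodes the anchor gephyrin, did, and it was higher (0.31). Slc17a6, a vesicular glutamate transporter, was lower (-0.11), the only one of 10 genes of glutamate synthesis and transport. Of 9 genes of GABA synthesis and transport 4 did, 2 in each direction; the synthetic enzyme Gad1 was at 0.08, and the degrading enzymes Abat and Aldh5a1 at -0.13 and -0.08. The medians of the 5 lists lay between -0.04 and 0.02 on the log2 scale, nearer to 0 than the receptors' -0.09.

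Within db/db brains, several receptor genes were lower with sucrose than with water. None of the 45 members passed the adjusted threshold, and neither did any gene (0% of 23653). At an unadjusted p under 0.05 there were 6 members (13.3%), all lower with sucrose, beside 7.20% of all genes (3.78% lower). Gabrb1, Gabrg3, Grm2, Grin2a and Gabbr2 were among them. In all, 36 of 45 members were below 0, beside 52.0% of all genes, and the median was -0.17 against -0.01. The median was nearer to 0 without replicate 1 of db/db sucrose (-0.07) or of db/db water (-0.10). DESeq2 called 3 members, Gabrb1, Gabrg3 and Grm2, among 165 genes.

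Gabrb1 was at 119.9 ± 2.03 CPM in db/db with water and 93.3 ± 4.63 CPM with sucrose (SD, n = 2), a log2 difference of -0.36 (95% interval -0.51 to -0.21, adjusted p = 0.435 in edgeR). With brazzein it was at 116.3 ± 6.01 CPM. Both sucrose libraries lay below the other 10. Grm2, a presynaptic receptor that restrains glutamate release, was at 22.51 and 15.17 CPM with water, 4.31 and 8.42 CPM with sucrose and 18.04 and 17.67 CPM with brazzein. The 2 sucrose values were the lowest of all 12 libraries, whose other values ran from 13.16 to 24.46 CPM. The difference from water was -1.56 (95% interval -2.48 to -0.65, adjusted p = 0.551 in edgeR), and it ranged from -2.13 to -1.16 when 1 library was left out.

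Gabrg3 was at 25.93 and 26.33 CPM with water and 20.19 and 17.46 CPM with sucrose, again the lowest 2 of 12, with 24.29 to 27.88 CPM elsewhere. The log2 difference was -0.47 (SE 0.10, adjusted p = 0.468 in edgeR). On the FPKM scale the same libraries stood closer, at 2.39 and 2.23 FPKM with water and 2.12 and 1.92 FPKM with sucrose, and the difference was -0.18. The 2 sucrose libraries also had fewer counts per unit of coverage for this gene, 87.2 and 85.0 against 97.0 to 107.9 in the other 10. Grin2a in db/db was at 129.5 ± 8.06 CPM with water and 105.5 ± 8.28 CPM with sucrose (-0.30, SE 0.08, adjusted p = 0.551 in edgeR).

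**Figure D3:**
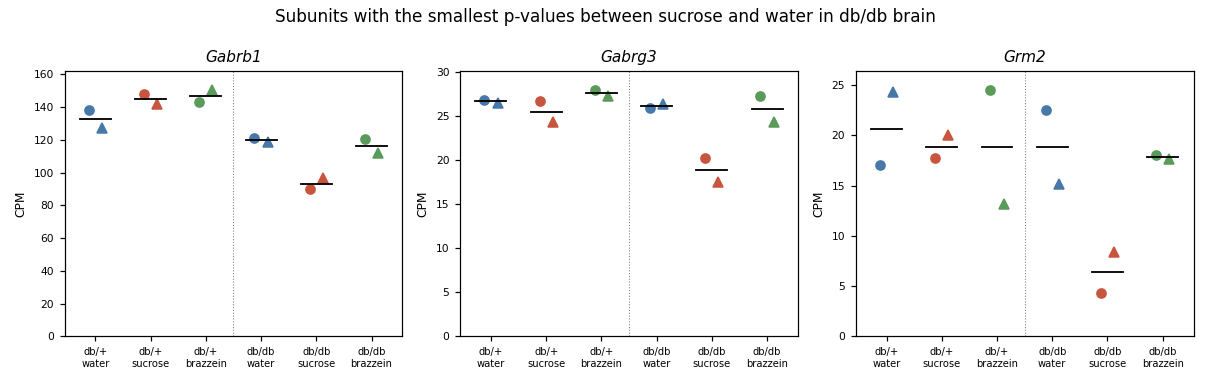
CPM (y axis, linear from 0) of Gabrb1, Gabrg3 and Grm2 in the 12 brain libraries, by genotype and drink (x axis; circles, replicate 1; triangles, replicate 2; horizontal lines, group means of 2). In each panel the 2 db/db sucrose points are the lowest of the 12.

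The comparison of brazzein with sucrose in db/db uses the same sucrose libraries and is given beside it. None of the members was called, beside 0.00846% of all genes. Gabrb1 was higher with brazzein by 0.32 (95% interval 0.16 to 0.47, adjusted p = 0.579 in edgeR), Gabrg3 by 0.45 (0.22 to 0.69, adjusted p = 0.654) and Grm2 by 1.49 (0.57 to 2.40, adjusted p = 0.812). At an unadjusted p under 0.05 there were 6 members (13.3%, beside 5.36% of all genes), 5 higher with brazzein and Gabrr2 lower. DESeq2 called the same 3 members, Gabrb1, Gabrg3 and Grm2, among 111 genes. Between brazzein and water in db/db, 1 member reached an unadjusted p under 0.05 (2.22%, beside 4.82%): Grin3a at -0.35 (95% interval -0.63 to -0.06, adjusted p = 0.941 in edgeR). For Gabrb1 and Grm2 the brazzein values overlapped the water values in db/db.

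In db/+ brains no member passed the adjusted threshold with either drink. With sucrose against water, 13 of 45 members were below 0, beside 49.3% of all genes, and the median was 0.12 against 0.003. It was 0.05 without water replicate 1, the library low in cerebellum markers, and 0.05 with the cerebellum marker sum as a covariate. Grin3b, an NMDA subunit of motor neurons, had the smallest p against water with both drinks. It was at 0.87 and 0.86 CPM with water, 1.45 and 1.41 CPM with sucrose (log2 0.72, SE 0.22, adjusted p = 1 in edgeR) and 1.33 and 1.15 CPM with brazzein (0.52, SE 0.22, adjusted p = 0.981). Both contrasts use the same 2 water libraries, which were the lowest of the db/+ brains. It was the only member with an unadjusted p under 0.05 in either contrast (2.22% of members, beside 4.72% and 4.86% of all genes). No member reached it between brazzein and sucrose (3.18% of all genes), where Gabre, Grin2d and Grm5 had the smallest p-values at log2 differences of 0.35, -0.65 and -0.35 with adjusted p-values of 1 in edgeR. Without 1 library in turn, Grin2d ran from -1.66 (without brazzein replicate 2) to -0.06 (without brazzein replicate 1), and Grm5 from -0.53 (without sucrose replicate 1) to -0.14 (without sucrose replicate 2).

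Averaged over the genotypes, sucrose against water had 4 members at an unadjusted p under 0.05 (8.89%, beside 5.61% of all genes): Gabrg3 (-0.27), Grm2 (-0.85) and Gabrb1 (-0.12) lower, and Grin3b (0.40) higher. Brazzein against water had 1 (2.22%, beside 4.61%), Grm5, at -0.48 (SE 0.19, adjusted p = 0.993 in edgeR). That value leaned on a db/db water library: Grm5 was at 112.2 CPM in replicate 1 and 62.55 CPM in replicate 2, and without the former the difference was -0.23. Brazzein against sucrose had 3 (6.67%, beside 4.02%), again Gabrg3 (0.28), Gabrb1 (0.17) and Grm2 (0.74). No gene of any kind was called in these 3 comparisons by edgeR (0%). DESeq2 called no member in them, in the contrasts within db/+ or between brazzein and water in db/db.

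Whether the drinks acted differently in the 2 genotypes was tested with an interaction term. None of the 45 members passed, nor did any gene (0%), and 5 members had an unadjusted p under 0.05 (11.1%, beside 5.45% of all genes). Gabrb1 had the smallest, 0.00246 (adjusted p = 0.654 in edgeR, 0.0218 in DESeq2), followed by Grin2a at 0.00702, Gabbr2 at 0.0389, Gabrg3 at 0.0444 and Grm2 at 0.0448. For Gabrb1 the group means ran 132.7, 144.9 and 146.6 CPM for water, sucrose and brazzein in db/+ and 119.9, 93.3 and 116.3 CPM in db/db. Sucrose thus stood above water in db/+ and below it in db/db. Grin2a also stood higher with sucrose than with water in db/+ and lower in db/db, at 128.0, 144.3 and 138.1 CPM in db/+ and 129.5, 105.5 and 116.2 CPM in db/db.

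The db/+ water library low in cerebellum was low in several receptor genes known from cerebellum. Gabra6 was at 32.34 CPM in it and at 90.01 to 129.5 CPM in the other 11, so it held 26.3% of their median. Grm4 was at 49.16 against 70.59 to 115.1 CPM (50.2%), and Gria4, an AMPA subunit abundant in cerebellum, at 87.12 against 98.53 to 149.3 CPM (72.1%). Gabrd, also a granule cell gene, was at 85.1%. Grin2c, another gene of granule cells, went the other way at 21.15 CPM, or 178.8% of the median of the other 11, where its counts were uneven (0 to 24.77 CPM). In this library 8 of 45 members were the lowest of the 12, beside 10.1% of all genes, and 5 of them were also under 0.75 of the median of the others, beside 6.19%. Apart from genes of low or uneven counts, Gabrr2, Gabra3, Gabrq, Gabra4 and Grm5 stood furthest above the median of the others there.

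**Figure D4:**
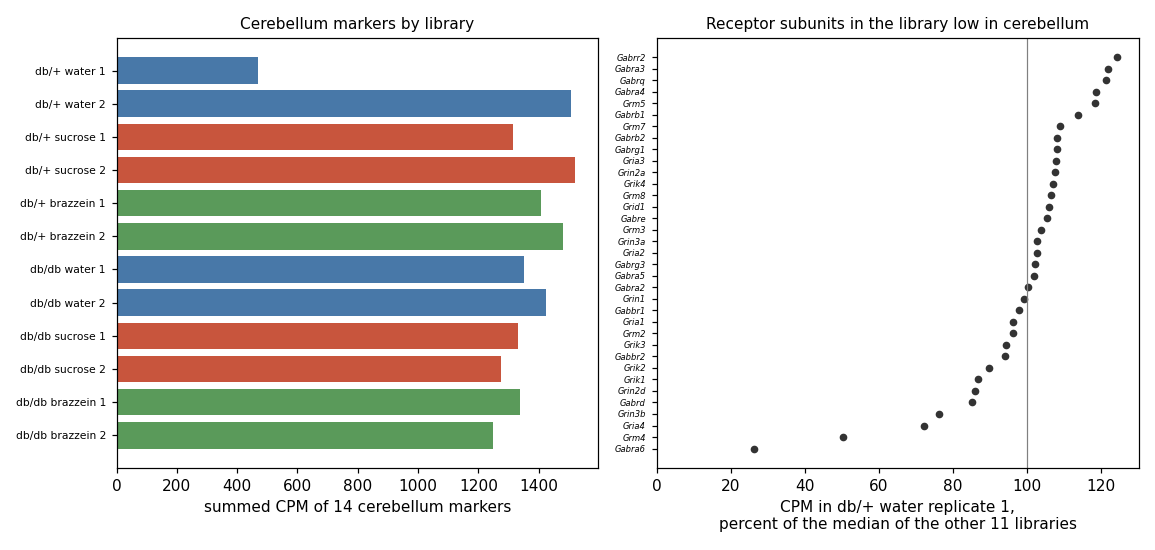
Left, summed CPM of 14 cerebellum markers in each brain library (bars from 0; colours, drinks); db/+ water replicate 1 stands at 470.3 CPM and the others at 1250 to 1522 CPM. Right, the CPM of receptor genes in that library as percent of the median of the other 11, for the genes reported here, leaving out Gabrr1, Gabrr3, Grik5, Grin2b and Grin2c for low or uneven counts; of the genes plotted, Gabra6 and Grm4 stand lowest, at 26.3% and 50.2%.

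The contrasts of the drinks with water in db/+ rest on this library and 1 other. When the other db/+ water library was left out, so that the low one stood alone for its group, the log2 differences of Gabra6 in db/+ were 1.97 with sucrose and 1.98 with brazzein. Both restate the low value of that library, and their call rests on the spread of the other groups. With the low library left out instead, no member was called in any of the 11 comparisons. With the cerebellum marker sum as a covariate none was either, and Gabrb1 kept a genotype difference of -0.36 (adjusted p = 0.0649 in edgeR).

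A few members had counts that jumped between replicates, and they are given as values only. Grin2b, the NMDA subunit of young and forebrain synapses, was at 0.03 CPM in db/db sucrose replicate 1 and 0.10 CPM in db/db brazzein replicate 1, and at 63.68 to 222.1 CPM in the other 10. These 2 libraries also had fewer counts per unit of coverage for Grin2b, 19.7 and 11.6 against 315.8 to 320.6. Grik5, a kainate subunit, was at 208.7 to 232.5 CPM in 4 libraries of 4 different groups and at 3.82 to 45.62 CPM in the other 8. Each of these 4 groups, sucrose and brazzein in both genotypes, held a high and a low replicate, and the 4 water libraries were all among the 8. Its SD over the 12 libraries was 16.95 FPKM, beside 17.5 FPKM for the kainate sum.

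Grin2c, an NMDA gene of cerebellar granule cells, was listed at 0 in db/+ brazzein replicate 1 and reached 24.77 CPM in replicate 2 of the same group. Grm3, a receptor of astrocytes and neurons, ran from 1.12 to 31.47 CPM, both in db/+ brains. Gabbr1 was at 308.3 CPM in db/+ water replicate 2, 486.0 CPM in db/db sucrose replicate 1 and 621.5 CPM in db/db brazzein replicate 1, and at 889.4 to 960.9 CPM in the other 9. Its counts per unit of coverage were 38.7, 47.4 and 48.8 in those 3 libraries and 53.4 to 54.6 in the others. Gria2, the AMPA subunit that blocks calcium, ran from 96.86 to 373.2 CPM, with both ends in db/db. These genes were picked out after their values were seen. Of the 43 tested members with a median of at least 1 CPM, 2 (Grin2b and Grin2c) had a library under 0.1 of the median, beside 1.51% of all such genes. At the other end, 18 members varied by at most 1.5 times between their lowest and highest library. The share of all genes this steady was not computed.

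**Figure D5:**
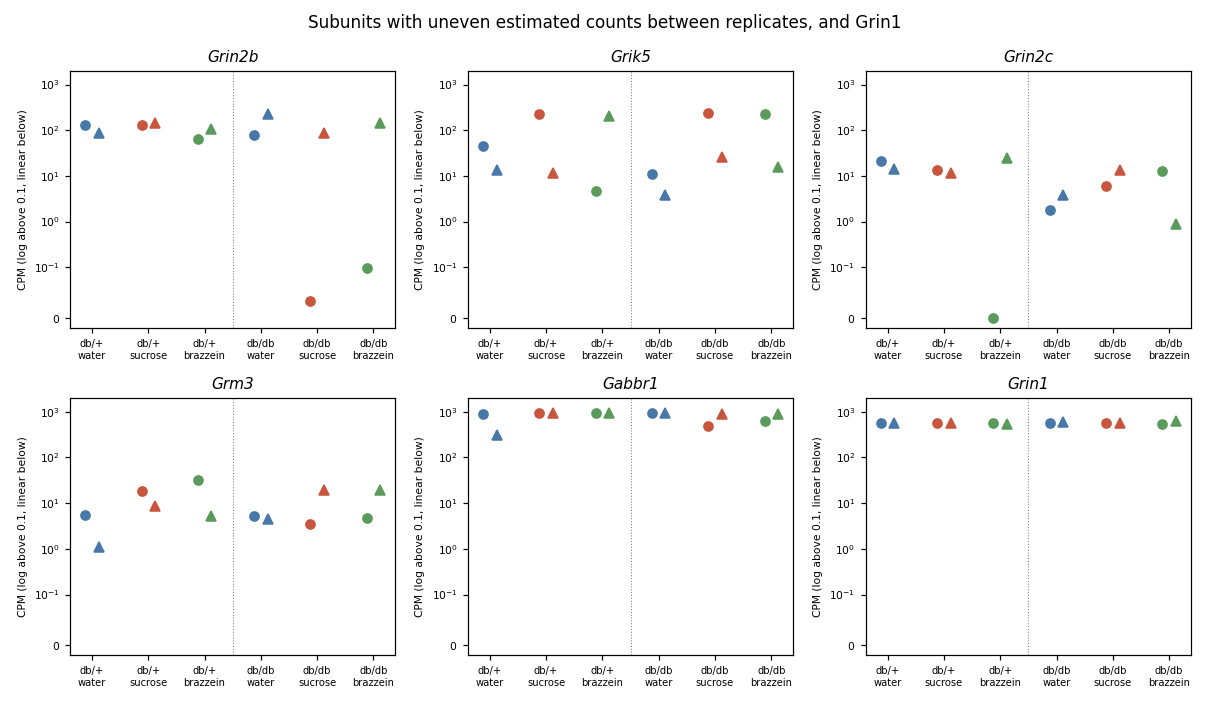
CPM of 5 subunits with uneven counts, and of Grin1 for comparison, in the 12 brain libraries by genotype and drink (y axis, logarithmic above 0.1 and linear below; circles, replicate 1; triangles, replicate 2). Grin2b stands at 0.03 and 0.10 CPM in 2 db/db libraries, Grik5 splits into 4 high and 8 lower libraries, and Grin1 stays between 543.6 and 613.6 CPM.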

How the data were processed

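Brain and liver RNA was made into poly(A) libraries with TRIzol extraction and a NEBNext Ultra II kit, per the labels' protocols. The kit named is not directional, so reads of overlapping genes cannot be told apart by strand. Per the submitters' processing notes, bcl2fastq and the build GRCm39 were used; the sources used here name no aligner, counter or annotation. Expected counts is the unit assumed for the deposited per-sample values, 1 whole number per gene; how they were made is not given in the sources used here. The deposited series table holds a coverage signal and FPKM per gene and sample; FPKM was used to compare levels between genes and in 1 alternative, and coverage to describe counts.

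The quasi-likelihood test of edgeR 4.0.16 in R 4.3.3 was run on the counts, after filterByExpr on the groups and TMM scaling, in 1 fit of 6 groups over the 12 brain libraries, with Benjamini-Hochberg adjustment over all 23653 genes tested and a threshold of 0.05. SEs were derived from the F statistics. The 11 comparisons were genotype over drinks, each pair of drinks over genotypes and within each genotype, and the interaction. Each group held 2 libraries, and nothing in the labels says that they came from separate animals, so p-values measure only the spread between these libraries. Results were recomputed with DESeq2 1.42.0, with RLE factors, without the filter, with a replicate block, with a cerebellum covariate, without each library, and, added after seeing the data, without 3 db/+ libraries together and with limma 3.58.1 on log2(FPKM + 0.1). The edgeR script was tested on simulated data. Liver libraries were described only.

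Members named with values were drawn from those past the threshold and the 3 of smallest p in each comparison, and the highest and lowest of each family. In some comparisons fewer than 3 are printed with an estimate. Others were named after their values were seen. The own values of some members and partner genes are not reported here, although they count in every total. The members and gene lists were chosen with earlier results of these data known. No coordinates of the files' build are printed, and promoter sequences come from RefSeq tables of GRCm38.p6. Protein sequences were not used here.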

Additional observations from a re-analysis of the deposited data

Results flagged for a closer look

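Within the 6 libraries of each genotype, a member was marked when its highest or lowest library lay far outside the other 5 by Dixon's ratio of gap to range. Of 80 sets of 6 examined, 6 were marked, and chance marks about 1 in 20.

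In db/+ brains, 3 members had an isolated low value. Gabra6 (32.34 CPM against 122.7 to 129.5) and Grm4 (49.16 against 97.9 to 115.1) were lowest in water replicate 1, the library low in cerebellum markers. Gabrr2 was highest in the same library, at 3.381 CPM against 2.511 to 2.763. Gabbr1 was at 308.3 CPM in water replicate 2, against 901.8 to 960.9 CPM in the other 5.

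In db/db brains, 2 members had an isolated high value. Gabra4 was at 135.4 CPM in brazzein replicate 2, against 116.4 to 120.7 CPM. Grm5 was at 112.2 CPM in water replicate 1, against 52.0 to 69.94 CPM.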

How the results depend on the processing

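The number of members called depended on the count test. DESeq2 called 5 members for genotype, 3 for sucrose against water in db/db, 3 for brazzein against sucrose in db/db and 1 for the interaction, where edgeR called 0 in each. RLE factors, no filter, the cerebellum covariate, the 3 db/+ libraries left out together and limma on log2 FPKM called 0 members in all 11 comparisons, and so did the replicate block (0 members, 14 at an unadjusted p under 0.05 for genotype). The cause of the gap between the tools was not tested. Leaving out 1 library gave 0 to 1 members for genotype (Gabrb1, called without replicate 2 of db/+ water or db/db sucrose, or without replicate 1 of db/db brazzein), 0 to 1 for sucrose and for brazzein against water over genotypes (Gabra6), and 0 to 2 for sucrose against water in db/+, brazzein against water in db/+ and the interaction (Gabra6 among them). Each of these calls in the contrasts with water and in the interaction arose without db/+ water replicate 2, where the lone library is assumed to vary like the other groups. The members at an unadjusted p under 0.05 for genotype numbered 9 to 16 over these 12 fits. Of 570 values of named members under alternatives, 558 kept direction and side of the threshold and 12 gained the threshold; none reversed.

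Counts over all genes moved more. For genotype they were 2 in the main test, 869 in DESeq2, 6 without the 3 libraries, 1 with no filter, 0 with the block, 0 with FPKM, and 1 to 42 with 1 library left out. In the order sucrose against water, brazzein against water and brazzein against sucrose, DESeq2 called 73, 59 and 69 genes over genotypes, 165, 93 and 111 in db/db and 82, 74 and 48 in db/+, and 194 for the interaction, where edgeR called 0, or 2 for brazzein against sucrose in db/db. With the covariate, 6 and 6 genes were called for sucrose and brazzein against water over genotypes, 13 and 13 in db/+, and 5 for the interaction. Without the 3 libraries the counts in the same order were 6, 4 and 0 over genotypes, 1, 1 and 0 in db/db, 12, 3 and 2 in db/+ and 3 for the interaction. With 1 library left out they reached 22, 25 and 11 over genotypes, 30, 22 and 18 in db/db, 73, 73 and 13 in db/+ and 26 for the interaction. No filter gave 2, limma on FPKM 1 for sucrose against water in db/db, and each gave 1 for sucrose and for brazzein against water in db/+. With the block, brazzein against sucrose in db/db had 1. Replicate numbers did not pair libraries: over 15 pairs of groups the correlation of same-numbered deviations was -0.04 to 0.04. With 2 libraries a group, intervals are wide for uneven members such as Grin2b and Grik5.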
